A study of Mus musculus with 12 samples.

Results

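Interferon response and innate RNA-sensing genes were followed in mouse embryonic stem (ES) cells after RNAi against *Kdm6a*. The genes were a list of 40, matched by symbol to the array annotation. Of these, 38 had a probe set of their own and 29 reached a mean level of 0.1 times the array mean, the minimum for testing, among 15309 genes tested in all. The probe set of *Isg15*, a ubiquitin-like modifier, also lists *Gm9706* and was not used, and no probe set carried *Ifi44* as its symbol. *Kdm6a* encodes an X-linked demethylase of lysine 27 of histone H3.

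Total RNA went onto 12 arrays of the type Affymetrix Mouse Gene 1.0 ST. Cells received either a pool of siRNAs against *Kdm6a* or control oligonucleotides without a target, so short double-stranded RNA and transfection reagent were given to both arms. In PGK12.1, a female line, 4 experiments each gave 1 *Kdm6a* RNAi array and 1 control array, and in WD44, a male line of BL6 background, 2 experiments did. In PGK12.1, experiments 1 and 2 were double RNAi, a transfection with 100 pmol that lasted 48 h followed by another with 400 pmol that lasted 24 h. Experiments 3 and 4, and those in WD44, were single RNAi with 100 pmol and 48 h. Sex, strain and derivation of the lines cannot be told apart. All cells were kept with LIF and on fibroblast feeders, which were depleted on gelatin before RNAi. No array held untransfected cells, so a response shared by both arms cannot be seen in these differences.

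Double-stranded RNA in the cytoplasm is bound by RIG-I-like receptors, which signal through the mitochondrial adaptor MAVS to interferon regulatory factors and so to type I interferon. Interferon binds the receptor IFNAR, and a complex that holds STAT2 and IRF9 then acts on interferon-stimulated response elements (ISREs) in promoters. Pluripotent stem cells are known for a weak interferon response. Enzymes such as the OAS family and PKR are themselves activated by double-stranded RNA. A change in these genes is therefore a usual concern in RNAi experiments.

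Promoters of the list were rich in the ISRE core. The ISRE core was searched on both strands as GAAA, any 2 bases and GAAA again, and was found in the window of 250 bases before to 50 bases after the start for 13 of the 34 listed genes with a RefSeq promoter (38.2%), against 3.99% of all 27025 genes (GRCm38.p6). Of the 29 genes tested, 25 had a promoter in the table and 8 of them (32.0%) held a match. Another motif, TTCNNNGAA (the gamma-activated site), was found for 11 of the 34 (32.4%), against 9.55% of all genes. The motifs can overlap, and a match is a string of letters and not a shown binding site. The matches are shown because this element is how the interferon complex is known to reach its targets, and the changes of these genes after *Kdm6a* RNAi are given with the results. Each line gives up to 30 bases on the strand of the gene. Capitals mark the match that lies furthest downstream, and any other match that lies whole within the line. The first 8 genes were tested. The match of *Isg15*, which has no value here, is not shown.

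*Stat2* (chr10:128270266-128270295, + strand): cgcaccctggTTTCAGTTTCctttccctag
*Ddx58* (chr4:40239804-40239833, - strand): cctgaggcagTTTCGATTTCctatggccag
*Eif2ak2* (chr17:78882535-78882564, - strand): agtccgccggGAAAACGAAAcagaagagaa
*Oas3* (chr5:120777715-120777744, - strand): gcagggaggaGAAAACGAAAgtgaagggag
*Bst2* (chr8:71537577-71537606, - strand): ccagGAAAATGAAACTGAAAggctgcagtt
*Ifitm2* (chr7:140955988-140956017, - strand): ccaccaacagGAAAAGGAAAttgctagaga
*Ifitm3* (chr7:141010706-141010735, - strand): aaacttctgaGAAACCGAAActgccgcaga
*B2m* (chr2:122147538-122147567, + strand): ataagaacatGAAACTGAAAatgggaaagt
*Ifit1* (chr19:34640794-34640823, + strand): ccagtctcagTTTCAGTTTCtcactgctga
*Ifit3* (chr19:34583397-34583426, + strand): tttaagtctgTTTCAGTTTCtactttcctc
*Rsad2* (chr12:26456553-26456582, - strand): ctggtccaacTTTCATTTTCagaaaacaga
*Ifih1* (chr2:62646206-62646233, - strand): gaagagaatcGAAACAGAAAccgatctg

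The 250 bases before the start of *Trim25*, 1 of the 2 genes of the list that changed, hold neither motif, nor does the rest of its window. The promoter of *Oas2*, the other, was not analysed here. They are shown for comparison (chr11:88999153-88999402, + strand).

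*Trim25*: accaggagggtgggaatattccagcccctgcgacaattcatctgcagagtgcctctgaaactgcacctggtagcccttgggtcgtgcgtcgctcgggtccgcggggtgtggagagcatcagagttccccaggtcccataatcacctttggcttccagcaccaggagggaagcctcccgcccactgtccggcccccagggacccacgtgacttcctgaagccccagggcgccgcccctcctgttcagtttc

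The arrays fell into sets of different scale, with median log2 values of 6.15 to 6.21 in PGK12.1 experiments 1 and 2, 6.47 to 6.48 in experiment 3, 8.2 to 8.21 in experiment 4 and 8.03 to 8.08 in WD44. Each *Kdm6a* RNAi array shared the scale of its control, so changes were taken within experiments. *Kdm6a* itself was lower in all 6 experiments, with mean changes of −59.0% in PGK12.1 (log2 change −1.29, SE 0.077) and −47.5% in WD44 (log2 change −0.93, SE 0.11). All 10 ES cell markers examined reached the minimum level. Their summed level was 73.9 to 98.1 times the array mean in *Kdm6a* RNAi arrays and 74.2 to 100.4 in control arrays of PGK12.1. Of the 10, *Utf1* fell in PGK12.1 (log2 change −0.22, adjusted p = 0.025 by limma) and no other was called, beside 5.81% of all genes called in PGK12.1. Of 7 blood cell markers measured, 5 lay under the minimum level, *Ptprc* and *Csf1r* among them. The summed level of the 7 was higher after *Kdm6a* RNAi in all 4 PGK12.1 experiments, by log2 0.167, 0.233, 0.191 and 0.032, and *Cd68*, the most abundant, averaged 0.25 (adjusted p = 0.055 by limma). The part of these markers in the results was not tested.

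Several classical interferon-induced genes lay at the low end of the arrays in both arms. The 9 genes of the list below the minimum level were *Irf7*, *Ifih1*, *Tlr3*, *Mx1*, *Mx2*, *Ifit1*, *Ifit2*, *Ifit3* and *Rsad2*, with mean levels from 0.036 (*Mx1*) to 0.096 times the array mean (*Irf7* and *Rsad2*). They hold the master regulator of the interferon genes (*Irf7*), sensors of long and of endosomal double-stranded RNA (*Ifih1* and *Tlr3*), and effectors that strong interferon responses induce steeply. Over the 12 arrays, *Ifit1* lay between 0.055 and 0.13 times the array mean, *Rsad2* between 0.065 and 0.12 and *Ifih1* between 0.053 and 0.12. The highest value of any of the 9 genes on any array was 0.15, for *Tlr3* in WD44. The values came without a detection call, so whether these signals exceed background is not known. Just above the minimum lay *Usp18* (0.10), *Dhx58* (0.12) and *Psmb8* (0.12).

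The log2 changes of these 9 genes varied in sign among experiments. *Irf7* changed by 0.00, −0.02, −0.11 and 0.08 in PGK12.1 experiments 1 to 4 and by 0.18 and −0.02 in WD44. *Ifih1*, which encodes MDA5, changed by −0.13, 0.17, 0.04 and −0.03 in PGK12.1 and by 0.20 and 0.13 in WD44. Neither gene had the same sign in all experiments of PGK12.1. Means of the 9 genes lay between −0.12 (*Ifit2*) and 0.04 (*Ifit1*) in PGK12.1, and between −0.12 (*Mx1*) and 0.275 (*Mx2*) in WD44. They were not tested in the fit, because of their level.

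In PGK12.1, 2 of the 29 genes tested fell after *Kdm6a* RNAi and none rose, at an adjusted p of 0.05 over all genes (limma). The 2 genes were *Oas2*, an oligoadenylate synthetase activated by double-stranded RNA, and *Trim25*, a ubiquitin ligase that acts in RIG-I signalling. They made up 6.9% of the list, near the 5.81% of all genes called in either direction. Both genes fell, and the share of all genes was 2.1% called lower and 3.71% called higher. The share by direction rests on 2 genes and was not tested. At an unadjusted p of 0.05, 7 of the 29 genes passed (24.1%), beside 22.6% of all genes. Of these 7, *Ifnar2* was higher and *Ddx58*, *Trim25*, *Oas2*, *Ifi35*, *Xaf1* and *Psmb8* were lower (3.45% and 20.7%, beside 13.5% and 9.18% of all genes). No gene of the list had a mean log2 change as large as 0.3 in either direction, a size reached by 2.38% of all genes. In bulk RNA, fewer cells of a type and less RNA per cell cannot be told apart.

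*Oas2* had levels of 0.201, 0.191, 0.145 and 0.297 times the array mean after *Kdm6a* RNAi in PGK12.1 experiments 1 to 4, against 0.269, 0.227, 0.165 and 0.356 in the controls. The *Kdm6a* RNAi array was the lower one in every experiment, although the ranges of the arms overlap across experiments. The log2 changes were −0.40, −0.26, −0.19 and −0.26, a mean of −0.28 (SE 0.047, adjusted p = 0.0095 by limma, lower in 4 of 4 experiments), or −17.5%. In WD44 the level was 0.158 and 0.141 after *Kdm6a* RNAi, against 0.160 and 0.147 in the controls. These WD44 levels are low, and no detection call came with the values.

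*Trim25* was among the more abundant genes of the list. Its level was 1.58, 1.66, 1.82 and 2.13 times the array mean after *Kdm6a* RNAi in PGK12.1, against 1.97, 2.07, 2.08 and 2.23 in the controls. All 4 *Kdm6a* RNAi arrays were below their own control, and the difference was smallest in experiment 4. The log2 changes of −0.30, −0.33, −0.19 and −0.07 gave a mean of −0.22 (SE 0.052, adjusted p = 0.036 by limma), or −14.3%. In WD44 the level was 2.38 and 2.42, against 2.44 and 2.42 in the controls. With 1 experiment left out, *Trim25* kept its call only without PGK12.1 experiment 4 (adjusted p = 0.0319 by limma). Without PGK12.1 experiment 1, 2 or 3 the adjusted p was 0.117, 0.143 and 0.0771, and without either WD44 experiment it was 0.0713, while the mean log2 change in these 6 fits stayed between −0.273 and −0.187. The adjusted p of *Oas2* stayed between 0.019 and 0.0421 in the same fits.

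**Figure D1:**
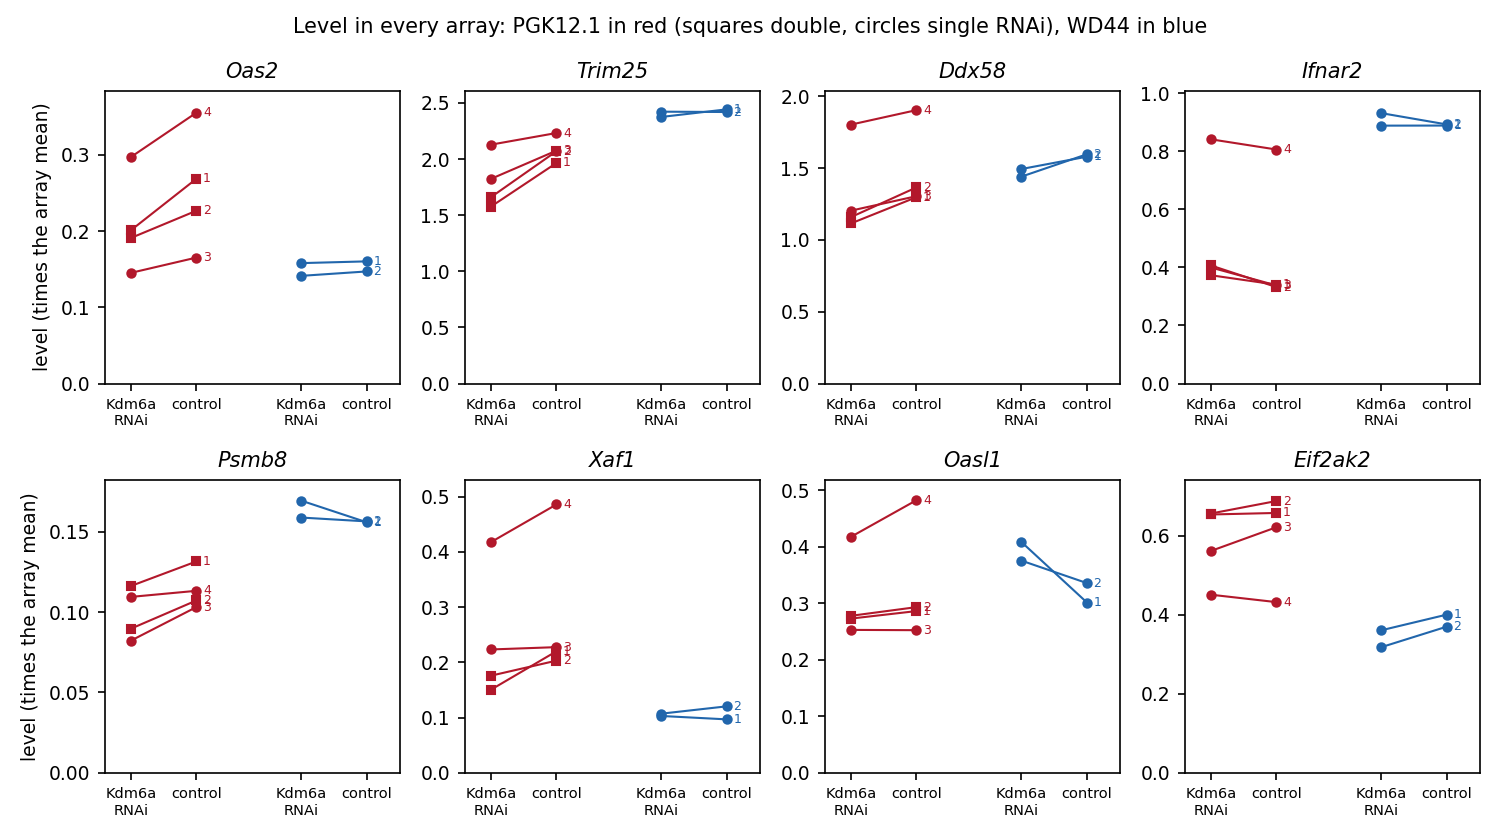
Level of 8 genes, in times the array mean, on each *Kdm6a* RNAi array (left of each pair) and its control (right), joined by experiment, with PGK12.1 in red and WD44 in blue. Numbers mark the experiment. *Oas2* and *Trim25* slope upward from *Kdm6a* RNAi to control in all 4 PGK12.1 experiments, and PGK12.1 experiment 4 lies apart from PGK12.1 experiments 1 to 3 in level for *Ifnar2*, *Xaf1* and *Ddx58*.

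The receptor and its signal transducers gave no call. *Ifnar1*, a chain of the type I interferon receptor, changed by 0.05, 0.03, −0.01 and 0.19 in PGK12.1 experiments 1 to 4 and by 0.03 and 0.10 in WD44. *Ifnar2*, the other chain, changed by 0.15, 0.28, 0.24 and 0.06 in PGK12.1 and by −0.02 and 0.05 in WD44. *Ifnar2* was thus higher in every PGK12.1 experiment, with a mean of 0.18 (SE 0.049, adjusted p = 0.058 by limma), the highest mean of the list in that line. *Stat2* changed by −0.12, −0.01, 0.11 and −0.03 in PGK12.1 and by −0.15 and −0.17 in WD44. *Irf9*, its DNA-binding partner, changed by −0.08, 0.03, −0.06 and −0.12 in PGK12.1 and by −0.17 and −0.07 in WD44. Both were lower in the 2 WD44 experiments, as were 33.1% of all genes.

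Of the interferon regulatory factors tested, *Irf3*, which acts directly downstream of MAVS, changed by 0.23, 0.03, 0.11 and 0.03 in PGK12.1 and by 0.06 and −0.10 in WD44. Its mean in PGK12.1 was 0.10 (SE 0.051, adjusted p = 0.28 by limma). *Irf1* was measured by 2 probe sets that disagree. Their means in PGK12.1 were −0.14 and 0.13, and the mean over both was −0.007.

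Among the sensors, *Ddx58*, which encodes RIG-I, was the most abundant, at 1.11, 1.16, 1.20 and 1.80 times the array mean after *Kdm6a* RNAi in PGK12.1 and 1.30, 1.37, 1.30 and 1.90 in the controls. In WD44 it was 1.49 and 1.44 after *Kdm6a* RNAi and 1.58 and 1.60 in the controls. The *Kdm6a* RNAi array was lower in all 6 experiments. Its log2 changes were −0.20, −0.25, −0.12 and −0.08 in PGK12.1 and −0.10 and −0.16 in WD44, with a mean in PGK12.1 of −0.16 (SE 0.045) that missed the threshold (adjusted p = 0.067 by limma). *Mavs*, the adaptor, changed by 0.08, 0.15, 0.11 and −0.05 in PGK12.1 and by 0.03 and −0.06 in WD44. *Dhx58*, which encodes the regulator LGP2, changed by 0.21, −0.28, −0.11 and −0.03 in PGK12.1 and by 0.03 and 0.22 in WD44.

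Enzymes that act on or are activated by double-stranded RNA, and OAS-like genes, showed no call apart from *Oas2*. *Eif2ak2*, which encodes PKR, changed by 0.01, −0.08, −0.15 and 0.06 in PGK12.1 and by −0.17 and −0.23 in WD44. *Adar*, an editing enzyme of double-stranded RNA, changed by 0.12, −0.01, −0.07 and −0.04 in PGK12.1 and by −0.08 and −0.10 in WD44. Their means in PGK12.1 were −0.04 and 0.00. *Oas3* averaged 0.007 in PGK12.1 and 0.035 in WD44, so the fall of *Oas2* was not seen in this relative (95% interval in PGK12.1 −0.10 to 0.12). *Oasl1*, which in mouse restrains translation of *Irf7*, changed by −0.05, −0.09, 0.00 and −0.21 in PGK12.1 and by 0.42 and 0.15 in WD44. *Oasl2* changed by −0.32, −0.24, 0.11 and 0.04 in PGK12.1 and by −0.03 and −0.27 in WD44. For *Oasl2* the sign thus followed double and single RNAi within PGK12.1.

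The antiviral effectors that reached the minimum level gave no call. *Ifitm3*, *Ifitm2* and *Ifitm1*, membrane proteins that restrict virus entry, were the most abundant genes of the list, at mean levels of 8.99, 6.86 and 6.46 times the array mean. These genes are close relatives, so their probe sets may share signal. *Ifitm1* changed by −0.04, −0.05, −0.01 and −0.065 in PGK12.1 and by −0.13 and −0.10 in WD44, lower in all 6 experiments with a mean of −0.04 in PGK12.1 (adjusted p = 0.59 by limma). *Ifitm2* averaged −0.055 and 0.027 in PGK12.1 and WD44, and *Ifitm3* averaged 0.06 and 0.01. The 3 probe sets of *Ifitm2* differed in sign in PGK12.1, with means of −0.080, −0.095 and 0.010.

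*Xaf1*, a proapoptotic interferon-induced gene, changed by −0.53, −0.22, −0.03 and −0.22 in PGK12.1 and by 0.07 and −0.18 in WD44. Its mean in PGK12.1 was −0.25 (SE 0.075, adjusted p = 0.083 by limma), the second lowest of the list, and without experiment 1 it was −0.157. *Ifi35* changed by −0.37, −0.21, 0.01 and −0.26 in PGK12.1 and by 0.02 and −0.30 in WD44, with a mean in PGK12.1 of −0.21 (SE 0.070, adjusted p = 0.11 by limma). Both genes thus had 1 experiment of PGK12.1 close to 0. *Parp14* changed by 0.12, −0.14, 0.12 and −0.11 in PGK12.1 and by −0.22 and −0.21 in WD44. *Isg20*, an exonuclease of RNA, averaged −0.06 in PGK12.1 and 0.005 in WD44. *Bst2*, which tethers budding virus, averaged 0.03 and 0.00, and *Usp18*, the protease that removes ISG15, averaged −0.04 and 0.08.

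Genes of antigen presentation moved in no common direction. *Psmb8*, an immunoproteasome subunit, changed by −0.16, −0.27, −0.33 and −0.05 in PGK12.1 and by 0.10 and 0.01 in WD44. Its mean in PGK12.1 was −0.20 (SE 0.053, adjusted p = 0.056 by limma). *Tap1*, a peptide transporter encoded beside the proteasome genes, changed by 0.02, 0.05, 0.34 and 0.10 in PGK12.1 and by −0.06 and 0.10 in WD44. *Psmb9*, another immunoproteasome subunit, averaged 0.03 in PGK12.1 and 0.045 in WD44, and *B2m*, the light chain of MHC class I, averaged −0.07 and 0.08. *Psmb8* was thus lower and *Tap1* higher in every PGK12.1 experiment.

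**Figure D2:**
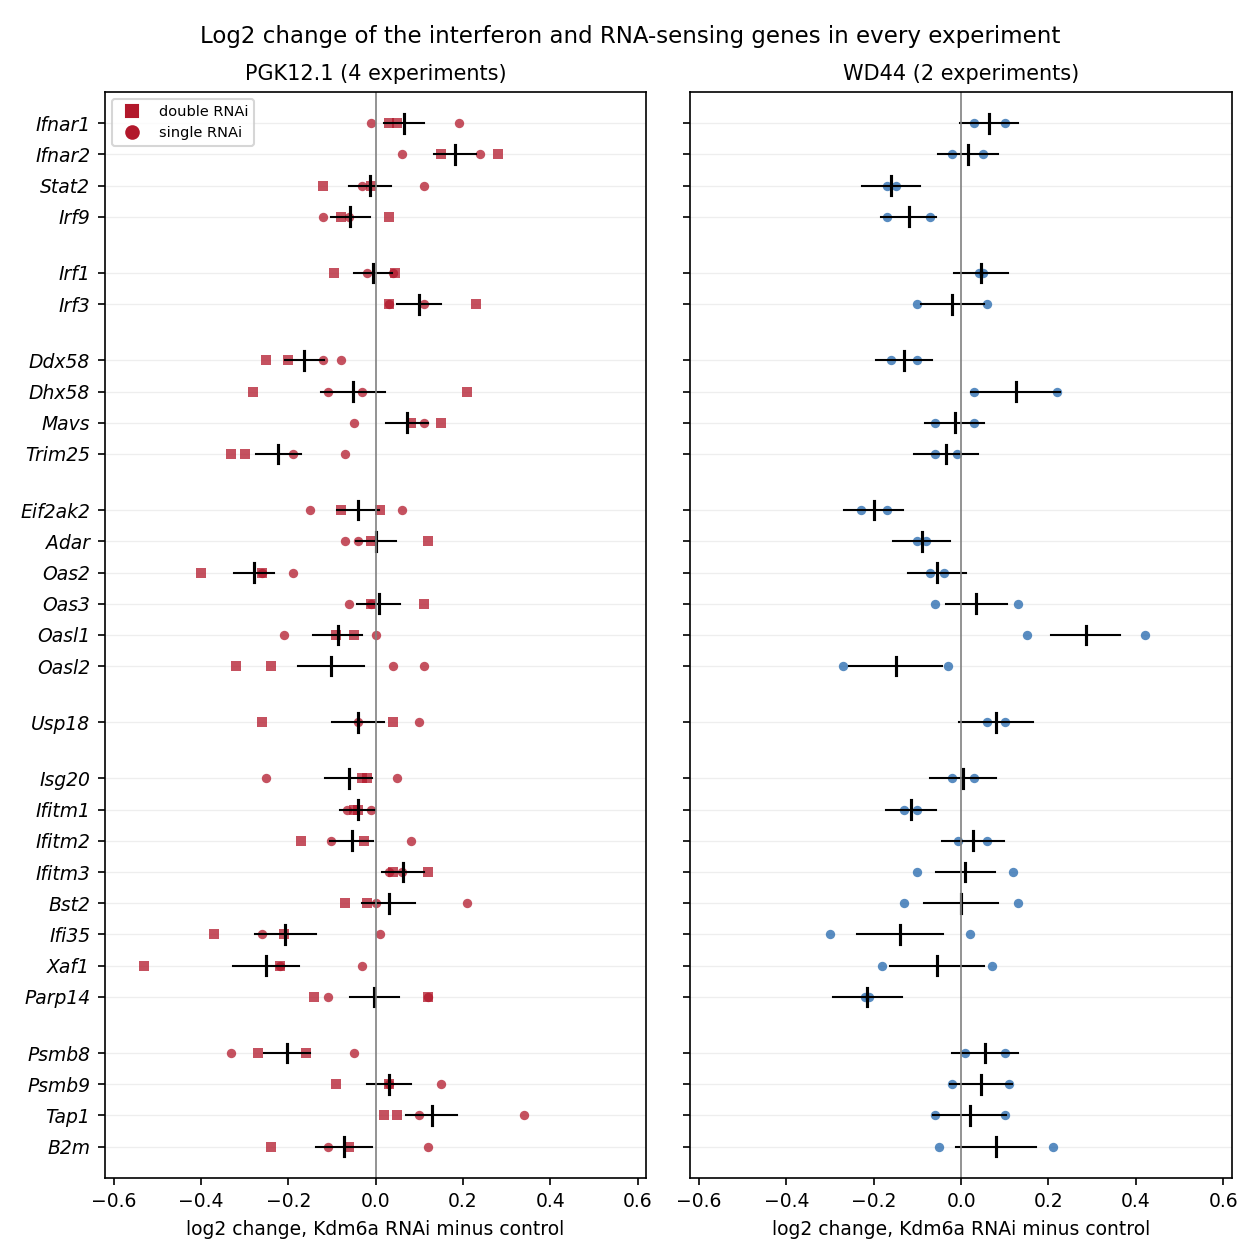
Log2 change (*Kdm6a* RNAi minus control) of the 29 genes tested in each experiment of PGK12.1 (left, squares double and circles single RNAi) and WD44 (right), grouped by role from receptor to antigen presentation. Black ticks are means and black bars 1 SE of the limma fit. Means range from −0.28 (*Oas2*) to 0.18 (*Ifnar2*) in PGK12.1 and from −0.215 (*Parp14*) to 0.285 (*Oasl1*) in WD44.

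Across the list, the mean change in PGK12.1 was below 0 for 19 of 29 genes (65.5%), beside 45.7% of all genes, and the median was −0.04, beside 0.007 for all genes. In WD44, 14 of 29 means (48.3%) were below 0, beside 50.6% of all genes. The genes lower in all 4 PGK12.1 experiments were *Ddx58*, *Trim25*, *Oas2*, *Ifitm1*, *Xaf1* and *Psmb8* (20.7%, beside 10.6% of all genes). Those higher in all 4 were *Ifnar2*, *Irf3*, *Ifitm3* and *Tap1* (13.8%, beside 16.3%). *Ddx58*, *Trim25*, *Oas2* and *Ifitm1* were lower in all 6 experiments (13.8%, beside 3.93%), and none was higher in all 6, beside 3.88% of all genes. These counts describe the list, which was not tested as a set.

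Among the 8 genes printed above with an ISRE core that were tested, none was called, beside 5.81% of all genes in PGK12.1 and 0.0% in WD44. With 8 genes, this count cannot show a difference from those shares. Their mean changes in PGK12.1 ranged from −0.16 (*Ddx58*) to 0.06 (*Ifitm3*), and in WD44 from −0.20 (*Eif2ak2*) to 0.08 (*B2m*). Over the 29 genes, the 95% intervals in PGK12.1 lay between −0.42 (*Xaf1*) and 0.29 (*Ifnar2*), or −25.2% to 22.4%, and 24 of the 29 intervals lay whole within 0.3 of 0.

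**Figure D3:**
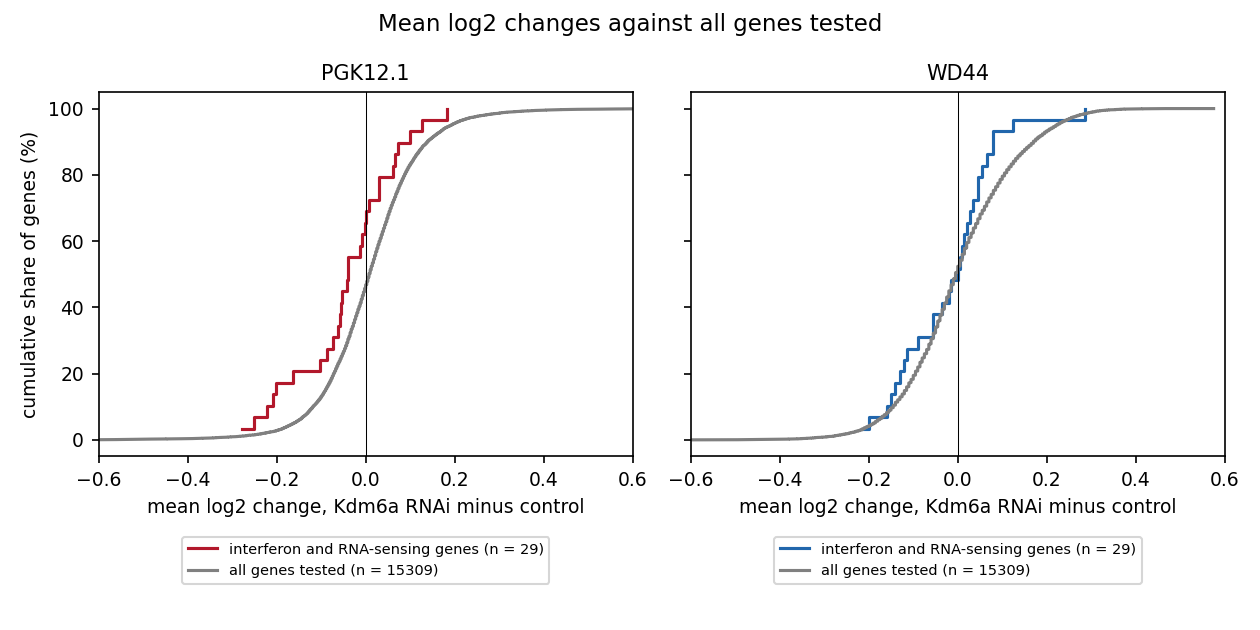
Cumulative share of genes (%) by mean log2 change (*Kdm6a* RNAi minus control) for the 29 genes of the list (coloured) and all 15309 genes tested (grey) in PGK12.1 (left) and WD44 (right). In PGK12.1 the coloured line lies left of the grey line, with 65.5% against 45.7% of means below 0. In WD44 the lines cross near 0, and the quartiles of the list were −0.115 and 0.045, beside −0.075 and 0.080 for all genes.

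In WD44, none of the 29 genes passed the threshold, nor did any of the 15309 genes (0.0%), *Kdm6a* included (adjusted p = 0.13 by limma). At an unadjusted p of 0.05, 4 of the 29 genes passed (13.8%), beside 16.1% of all genes. *Stat2*, *Eif2ak2* and *Parp14* were lower (10.3%, beside 7.23% of all genes) and *Oasl1* was higher (3.45%, beside 8.84%). *Oasl1* had a level of 0.408 and 0.375 after *Kdm6a* RNAi, against 0.301 and 0.336 in the controls. Both *Kdm6a* RNAi arrays lay above both controls, with a mean log2 change of 0.285 (SE 0.079, adjusted p = 0.18 by limma). With 2 experiments, intervals in WD44 were wider, from −0.39 (*Parp14*) to 0.46 (*Oasl1*), and 22 of 29 lay within 0.3 of 0.

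The difference between the responses of PGK12.1 and WD44 passed for none of the 29 genes, nor for any of the genes tested (0.0%). At an unadjusted p of 0.05, *Oas2*, *Oasl1* and *Psmb8* passed (10.3%), beside 21.0% of all genes. The mean difference, PGK12.1 minus WD44, was −0.22 for *Oas2* (95% interval −0.40 to −0.04, adjusted p = 0.16 by limma) and −0.19 for *Trim25* (−0.39 to 0.01, adjusted p = 0.26). That both were called in PGK12.1 and not in WD44 is therefore not shown to be a difference between the lines. *Oasl1* had the largest difference of the list, −0.37 (−0.59 to −0.16, adjusted p = 0.0995 by limma).

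Double against single RNAi was compared within PGK12.1. Dose, time and scale of the arrays changed together between the 2 pairs of experiments. No gene of the list passed, nor did any of the genes tested (0.0%), and at an unadjusted p of 0.05 *Oasl2* alone passed (3.45%), beside 8.88% of all genes, or 4.1% counting those more negative after double RNAi. Its level was 0.128 and 0.118 after double RNAi against *Kdm6a*, against 0.162 and 0.138 in the controls, and 0.169 and 0.283 after single RNAi, against 0.156 and 0.275 in the controls. It was below its control after double RNAi and above it after single RNAi, a difference of −0.355 (95% interval −0.59 to −0.12, adjusted p = 0.50 by limma). For *Trim25* the difference was −0.185 (−0.38 to 0.009, adjusted p = 0.57).

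Levels of the lines could not be compared on the log2 scale, and each gene was ranked among the genes tested on its own control array instead. For 19 of the 29 genes (65.5%) the 4 PGK12.1 controls did not overlap with the 2 WD44 controls, beside 51.0% of all genes. In 10 genes the PGK12.1 controls ranked higher (34.5%, beside 26.4% of all genes) and in 9 lower (31.0%, beside 24.7%). *Xaf1* ranked at percentiles of 28.9, 28.8, 37.2 and 47.0 in PGK12.1 controls, against 2.80 and 6.58 in WD44 controls. *Oas2* ranked at 36.1, 32.6, 28.1 and 38.1, against 17.4 and 12.7. *Oasl2* ranked at 17.1, 14.5, 26.4 and 30.0, against 51.3 and 56.4. *Xaf1* and *Oas2* thus ranked higher in PGK12.1 and *Oasl2* in WD44, without overlap.

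For some genes the rank followed the set of arrays. *B2m* ranked at 56.8, 60.5 and 58.6 in PGK12.1 experiments 1 to 3 and at 83.3 in experiment 4, against 90.5 and 91.2 in WD44. *Ifnar2* ranked at 43.9, 44.2, 47.5 and 60.9, against 63.2 and 63.5, and *Eif2ak2* at 62.9, 64.0, 62.8 and 43.7, against 42.4 and 40.2. In all 3 genes experiment 4, whose scale is closest to that of WD44, lay next to the WD44 arrays. The part of the array set in these differences was not tested, and no test was run on the ranks, since the smallest p of an exact permutation test of 4 against 2 arrays is above 0.05.

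**Figure D4:**
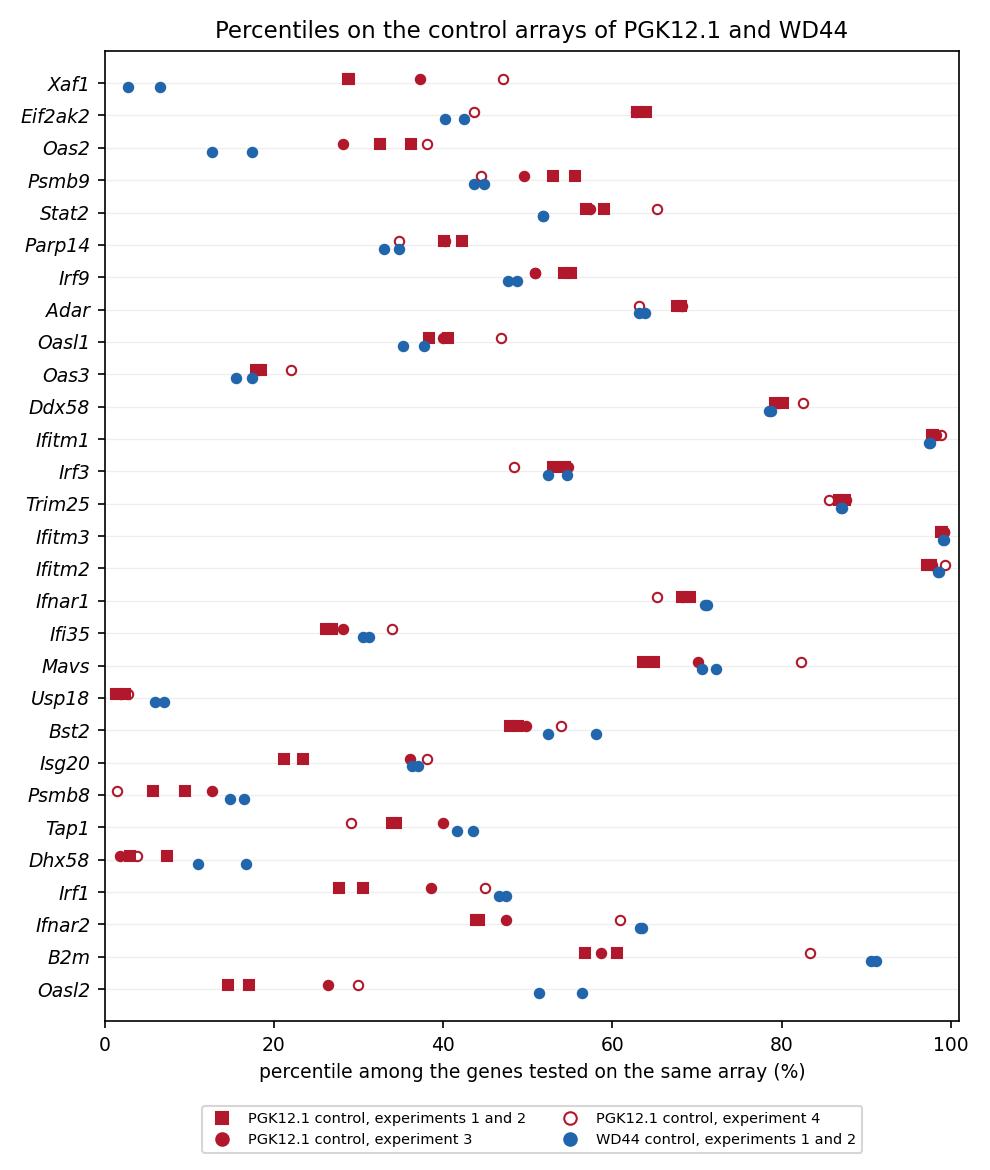
Percentile of each of the 29 genes among the genes tested on the same control array, with the 4 PGK12.1 controls in red (open circle, experiment 4) above the 2 WD44 controls in blue. Genes are ordered by the difference between the lines, from *Xaf1* (higher in PGK12.1) to *Oasl2* (higher in WD44). For *B2m*, *Ifnar2* and *Eif2ak2* the open circle lies beside the blue points.

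Other genes of the pathway were taken from a list of 212 ligands, signalling proteins, sensors, RNA decay and RNAi proteins, interferon-induced genes and MHC class I genes, of which 180 were measured and 150 tested. In PGK12.1, 4 fell and 3 rose (4.67%, beside 5.81% of all genes), and in WD44 none passed. None of the 6 interferon ligand genes tested was called, with mean changes of −0.19 to 0.075 in PGK12.1. The called genes were spread over the roles: *Sting1*, *Lgals9*, *Ago1* and *Tor3a* fell, and *Nfkbia*, *Ifngr1* and *H2-Q4* rose. *Jak1*, the kinase bound to the interferon receptor, averaged 0.205 in PGK12.1 (adjusted p = 0.065 by limma) and −0.04 in WD44.

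*Sting1*, the adaptor that signals from cytosolic DNA, changed the most. Its level was 0.173, 0.153, 0.099 and 0.219 times the array mean after *Kdm6a* RNAi in PGK12.1, against 0.256, 0.224, 0.148 and 0.316 in the controls. In WD44 it was 0.227 and 0.188 after *Kdm6a* RNAi, against 0.270 and 0.251 in the controls. Its lowest level, 0.099, lay just under 0.1, and no detection call came with the values. *Sting1* was lower in all 6 experiments. The log2 changes of −0.55, −0.56, −0.58 and −0.53 in PGK12.1 had a mean of −0.555 (SE 0.044, adjusted p = 0.00046 by limma), or −31.9%, and the mean in WD44 was −0.35 (adjusted p = 0.16).

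Among the others, *Lgals9*, a galectin, changed by −0.19, −0.28, −0.33 and −0.46 in PGK12.1 (mean −0.315, adjusted p = 0.0086 by limma). *Ago1*, an Argonaute protein of the RNAi machinery, changed by −0.55, −0.55, −0.09 and −0.48 (mean −0.42, adjusted p = 0.013). *Tor3a*, an interferon-responsive torsin, changed by −0.20, −0.18, −0.21 and −0.24 (mean −0.21, adjusted p = 0.019). All 3 were also lower in both WD44 experiments. *Nfkbia*, the inhibitor of NF-κB, rose by a mean of 0.27 (0.32, 0.36, 0.20 and 0.21, adjusted p = 0.010 by limma). *Ifngr1*, a chain of the interferon gamma receptor, rose by a mean of 0.20 in PGK12.1 (0.15, 0.14, 0.25 and 0.27, adjusted p = 0.039). *H2-Q4*, an MHC class I gene with close relatives that may share its probes, rose by a mean of 0.175 (0.24, 0.16, 0.20 and 0.10, adjusted p = 0.044). With 1 experiment left out, *Sting1* and *Lgals9* were called in all 6 fits, *Nfkbia* in all but the fit without PGK12.1 experiment 2 and *Ago1* in all but those without PGK12.1 experiment 2 or 4. *Tor3a* kept its call only without a WD44 experiment, and *Ifngr1* and *H2-Q4* lost theirs in all 6 fits.

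**Figure D5:**
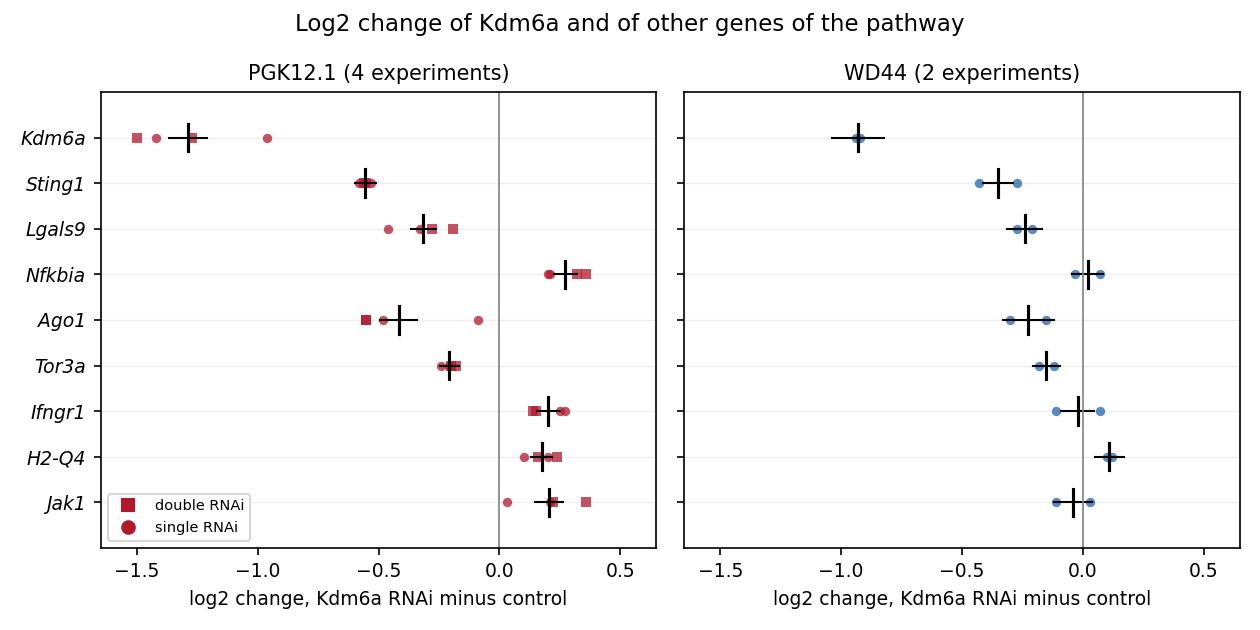
Log2 change (*Kdm6a* RNAi minus control) of *Kdm6a* and of 8 other genes of the pathway in each experiment of PGK12.1 (left, squares double and circles single RNAi) and WD44 (right), with the mean (tick) and 1 SE of the limma fit (bar). *Sting1* is at −0.58 to −0.53 in all 4 PGK12.1 experiments, while *Ago1* has experiment 3 at −0.09 apart from −0.55 to −0.48.

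Markers of the feeder fibroblasts, which can express interferon-induced genes themselves, were measured beside these results. Of 16 listed, 15 were measured and 13 tested, while *Lum* and *Postn* lay under the minimum level. In PGK12.1 the summed level of the markers was 14.4 to 25.4 times the array mean after *Kdm6a* RNAi and 15.9 to 27.4 in the controls, with log2 changes of −0.152, −0.112, −0.14 and −0.113 in experiments 1 to 4. In WD44 it was 30.9 to 33.4 after *Kdm6a* RNAi and 30.4 to 30.6 in the controls, with changes of 0.025 and 0.127. *Sparc* fell in PGK12.1 (log2 change −0.46, adjusted p = 0.0011 by limma), and no other marker of the list was called, beside 5.81% of all genes called in PGK12.1. The sum was made up mostly of *Vim*, *Fn1* and *Sparc*, at mean levels of 8.75, 6.13 and 4.71, while *Col1a1* and *Col1a2*, the chains of fibroblast collagen, had mean levels of 0.43 and 0.32. *Col1a1* and *Col1a2* averaged −0.09 and −0.07 in log2 change in PGK12.1. *Acta2*, *Pdgfrb*, *Pdgfra* and *S100a4* averaged above 0, at 0.11, 0.09, 0.07 and 0.03. The median over the 13 markers tested was −0.037 in PGK12.1 and 0.125 in WD44. The summed markers were lower in the arm and line in which *Oas2* and *Trim25* fell, and their part in that result was not tested.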

How the data were processed

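The authors deposited log2 values of probe sets, made with Affymetrix Expression Console and RMA. For their versions, and for the arrays that RMA took together, the answer is not given in the sources used here. The values were used as deposited. The annotation gave 21789 of 35556 probe sets a single symbol, 1621 more than 1 and 12146 none. Probe sets of a gene were averaged (999 genes had several), giving 19938 genes, of which 15309 had a mean linear value of at least 0.1 of the array mean. RefSeq tables of GRCm38.p6 gave names (19919 symbols found) and promoters.

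All 12 arrays entered a single limma fit (version 3.58.1, R 4.3.3) with blocks for experiments and a separate *Kdm6a* RNAi effect in each line. It had 4 residual degrees of freedom, and 5.66 from the prior. P-values were adjusted by Benjamini-Hochberg over all genes tested, at 0.05. Errors in WD44 come largely from PGK12.1, which supplied most of the degrees of freedom. The pairing comes from experiment numbers in the labels and the paired tests of the methods. As a check, deviations from group means were correlated between the arrays of an experiment, at 0.785, 0.79, 0.895 and 0.959 for PGK12.1 and 0.187 for WD44, values that also hold the scale of the arrays. The labels do not say that experiments used separate cultures. The paper calls the experiments behind its array results independent, without naming cultures. The spread among experiments may therefore still be technical, and the number of arrays limits precision. The fit was tested on simulated data, drawn with the same blocks and independent noise, so that test cannot check the pairing. Figures came from matplotlib 3.10.9 (Python 3.11.15).

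The members and lists were chosen with earlier results of these data known. Every gene of the list at the minimum level is named. Values per experiment are given for genes of the list that were called or had 1 sign in all 6 experiments, the 8 largest mean changes in PGK12.1 and 5 in WD44, and a chosen set of receptors, transducers and sensors. Other pathway genes are named where called, and *Jak1* always; 1 further gene to be named always is not reported here. *Xaf1*, *Oas2*, *Oasl2*, *B2m*, *Ifnar2* and *Eif2ak2* in the ranks of the controls were chosen after their values were seen. Alternatives were no block, other minimum levels, single probe sets, quantile normalization, median centring, trend and robust options, the methods' paired t-test with adjustment over all genes, double or single RNAi alone, and leaving out each experiment.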

Additional observations from a re-analysis of the deposited data

Results flagged for a closer look

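*Ago1* changed by −0.09 in PGK12.1 experiment 3, far from the −0.55 to −0.48 of the other 3 experiments. Of the 38 genes named and examined for an experiment far from the rest of its line, this was the only one. With 4 experiments a gene is marked by chance in about 1 of 20 cases.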

How the results depend on the processing

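The 2 calls among the genes of the list in PGK12.1 depended on the setting. Without the block that pairs arrays by experiment (no replicate block), 0 genes of the list and 0 other pathway genes were called. *Kdm6a* itself was not called then (adjusted p = 1), because the scale of the arrays enters the error. The methods' paired t-test called 0 and 0 after adjustment, and 0 of all genes. Double RNAi alone gave 0 and 2 calls, single RNAi alone 0 and 2, beside 1.19% and 0.66% of all genes. No minimum level gave 1 (*Oas2*) of the list, beside 2.27% of all genes. Trend and robust options gave 5 (with *Ddx58*, *Ifnar2* and *Xaf1*) and 12, beside 10.8% of all genes. At a minimum level of 0.25, which leaves *Oas2* untested, *Trim25*, *Ddx58* and *Ifnar2* were called, beside 13% of the genes tested then. With 1 experiment left out, 1 to 3 genes of the list and 2 to 5 other pathway genes were called, beside 2.29% to 3.96% of all genes. *Oas2* was called in all of these, *Trim25* only without PGK12.1 experiment 4. *Kdm6a* in WD44 passed at a minimum level of 0.25, with quantile normalization, with trend and robust options and without PGK12.1 experiment 4. Over all genes, 890 were called in PGK12.1 in the fit reported, 452 with no minimum level, 1365 at 0.25, 1647 with trend and robust options, 182 with double and 101 with single RNAi alone, and 350 to 607 with 1 experiment left out. In WD44, 0 of all genes were called in the fit reported and by the paired t-test, and 12 with trend and robust options. In WD44 and for both differences, none of the 29 genes was called in any setting run. For the difference between the lines, 554 of all genes (3.62%) were called with trend and robust options and 267 (2.53%) at a minimum level of 0.25. The count of control ranks without overlap was 12 at a minimum level of 0.25 (fewer genes tested), beside 52% of all genes, and 19 to 26 with 1 experiment left out, beside 52.8% to 75.5%. The highest count and share came without PGK12.1 experiment 4. *Oasl2* in PGK12.1 changed sign with single RNAi alone (0.075), which leaves out both experiments in which it was lower. Of the other changes of single genes, 1696 kept their side of the threshold, 63 lost a call and 14 gained one. Changes near 0 could also switch sign between settings without a call. *Stat2* in PGK12.1 ran from −0.065 to 0.04, *Irf1* in PGK12.1 from −0.142 to 0.128 and *B2m* in WD44 from −0.05 to 0.21. Low signal limits the 9 genes under the minimum level.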
